A study of Bos grunniens with 18 samples.

Results

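The genes of the lysosome were followed in the whole blood of the yak (*Bos grunniens*) at 3 reproductive stages. A gene was a member when its row in the annotated expression table carried the KEGG pathway Lysosome and not the pathway Oxidative phosphorylation, and had 10 or more counts in at least 6 libraries. *CD68*, *SCARB2*, *SLC11A1*, *SLC11A2* and *IGF2R* were left out by name. Of 20607 rows, 156 carried the Lysosome entry; 12 of these also carried Oxidative phosphorylation, 14 were under the count minimum and 5 were the genes left out, which gave 125 members. All 125 were among the 14508 genes tested, and 112 had 10 or more counts in all 18 libraries.

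The blood came from 6 cows in the second year of calving, aged 4 to 8 years, of an artificially inseminated herd. Each stage has 6 libraries: those of anestrus are called Y-A, those of estrus Y-E and those of pregnancy Y-P. The synchronization programme of the herd used a progesterone pessary, a PGF2α analogue and GnRH with timed insemination, and the day of pregnancy at sampling was not given in the sources used here. Poly(A) RNA was sequenced from blood in EDTA and TRIzol LS, without a depletion of hemoglobin transcripts being named. Whole blood mixes granulocytes, monocytes, lymphocytes, platelets and young red cells, so that fewer cells of a type and less RNA per cell cannot be told apart.

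The libraries held 30247267 to 48401076 counts. The share of hemoglobin complex genes was 3.1% to 16.7% in Y-A, 0.0272% to 0.376% in Y-P, and 0.0898% to 0.713% in the first 5 Y-E libraries. Y-E replicate 6 stood apart with 8.36%, so results that rest on it are given with and without it. Markers of neutrophils, monocytes, T cells, B cells and NK cells were detected in every library, as the label of whole blood implies. Over 7 measured neutrophil markers the summed level was 2641 to 5947 CPM (counts scaled to the library total) in Y-P, 4703 to 12390.3 in Y-E and 3652 to 9240.4 in Y-A. The Y-E low of 4703 was Y-E replicate 6, and the medians were 3423 in Y-P, 9974 in Y-E and 5261 in Y-A. Over 6 measured T cell markers it was 1161 to 1923 CPM in Y-P, 965 to 1159 in Y-E and 965 to 1196 in Y-A.

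The lysosome is the acidic compartment in which a cell takes apart proteins, glycans, lipids and nucleic acids. Its soluble hydrolases are tagged with mannose 6-phosphate in the Golgi, recognised there by receptors, and carried by adaptor proteins and clathrin to endosomes. Its membrane is lined with glycosylated proteins and transporters, and a proton pump acidifies it. In blood, granulocytes, monocytes and B cells rely on it to digest what they take up and to prepare antigens, and cytotoxic lymphocytes keep killing proteins in lysosome-related granules.

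Levels were compared between genes as FPKM, which is scaled by gene length. The 125 members had a median of 16.7 FPKM over all libraries, against 7.78 FPKM for all genes tested. With the abundance classes the study uses, 25 members were at 60 FPKM or more, 42 at 15 to under 60, 50 at 0.3 to under 15, and 8 under 0.3. The leading member was *LAPTM5*, a lysosomal membrane protein of blood cells that limits antigen receptor levels, at 1782 FPKM. *PSAP*, the precursor of the saposins that help enzymes reach sphingolipids, followed at 1055 FPKM. Then came *LITAF*, a small zinc-binding protein of late endosomes, at 360.2, the cysteine protease *CTSB* at 260.3 and the membrane glycoprotein *LAMP1* at 243 FPKM. These 5 members were at or above the percentile 98.7 of all rows by mean FPKM.

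**Figure D1:**
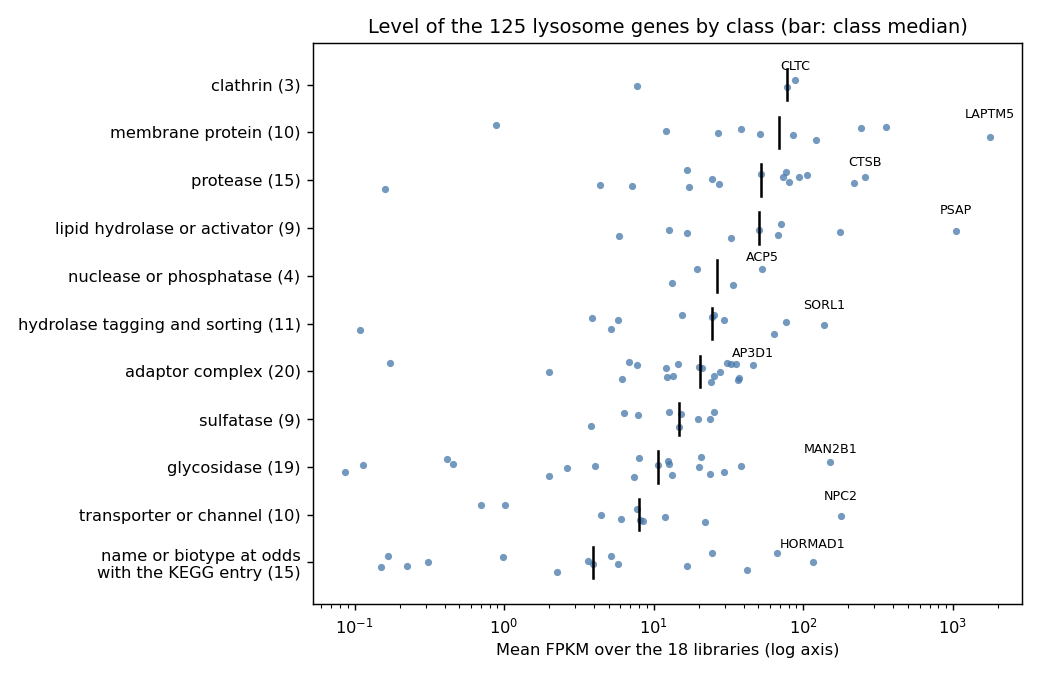
Mean FPKM over the 18 libraries (log axis) of each of the 125 lysosome genes, by functional class with the number of members in parentheses; each point is a gene, the bar is the class median, the highest gene is named in all classes but the sulfatases, and the height of a point within its class carries no value. *LAPTM5* at 1782 and *PSAP* at 1055 FPKM stand above the other members.

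The name of a row did not always match its lysosomal annotation. For 23 members the table gives an identifier in place of a symbol. The row with the enzyme number of cathepsin D (ENSBGRG00000008484, chr29:1630212-1639080, minus strand) was typed as a pseudogene and yet reached 219 FPKM. Its opposite strand holds a second row with the same enzyme number, ENSBGRG00000009700, at 4.39 FPKM. ENSBGRG00000009987 (chr5:47278112-47282276) has the orthology entry of CD63, a tetraspanin of lysosomes and granules, and sits where RefSeq places *CD63*. The row called *HORMAD1* (chr3:21155724-21213794) carries the enzyme number of cathepsin S, and RefSeq orders *HORMAD1* and *CTSS* side by side there. Its 116 FPKM can therefore include both genes. In 15 members the name or the biotype was at odds with the KEGG entry, and these were kept as a class of their own. A same-strand overlap with another row was present for 12 members and an opposite-strand overlap for 23, and whether the counting used strand was not stated.

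The spread between the 6 libraries of a stage was small for most members. The SD of log2 CPM within a stage had a median of 0.28 over the members and 0.36 over all genes tested, and the members were also the more abundant genes. Among members with 10 counts in every library the steadiest were *AP3D1*, the large delta subunit of the adaptor complex AP-3 (0.1), *WDR11* (0.11) and *M6PR*, the cation-dependent mannose 6-phosphate receptor (0.12). The widest spreads were those of ENSBGRG00000009700 (0.9), ENSBGRG00000008728 (0.74) and ENSBGRG00000005040 (0.62). Together the 125 members held 1.53% to 1.76% of all counts in Y-A, 1.59% to 1.95% in Y-E and 1.57% to 1.88% in Y-P, and these ranges overlap. All counts here include those of hemoglobin genes, which held 3.1% to 16.7% in Y-A, 0.0898% to 8.36% in Y-E and 0.0272% to 0.376% in Y-P. The stages are therefore not set side by side on an equal base.

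The stages were compared by the quasi-likelihood test of edgeR with Benjamini-Hochberg adjustment over all genes tested, and called genes are those whose adjusted p was under 0.05. In all, 19 members were called in at least 1 comparison, 106 in none, and 3 (*AP1G2*, *SGSH* and *TPP1*) in both comparisons with Y-P. The comparisons share their libraries, so a gene that passes in both is not shown by independent samples.

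From anestrus to estrus, no lysosome gene passed the test. For Y-E vs. Y-A, 0 of 125 members were higher and 0 lower by edgeR. DESeq2 also called 0, beside 0.462% of all genes. Over all genes edgeR called 3, 0.0207% in either direction, with 0% higher and 0.0207% lower. With a log2 fold change of at least 1 also asked it was 0.0138%. At an unadjusted p under 0.05 there were 10 members, 8% of them, beside 6.2% of all genes. The smallest adjusted p was 0.439, for *GGA1*. The log2 fold changes of 117 members lay within 0.5 of 0, and their median was 0.05, against -0.01 over all genes tested. No member separated the 6 Y-E from the 6 Y-A libraries, as 0.303% of all genes did.

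From anestrus to pregnancy, 5 members passed. For Y-P vs. Y-A, 3 members rose and 2 fell, which is 4% of the members beside 5.83% of all genes (2.22% higher and 3.61% lower). The rising members were *AP1G2*, *IDUA* and the ABC transporter row ENSBGRG00000008536, and the falling members *SGSH* and *TPP1*. None of them reached a log2 fold change of 1, as 1.43% of all genes did. The median log2 fold change of the members was -0.02, against 0.03 over all genes. The 6 and 6 libraries did not overlap for 3 members (2.4%), *GGA1*, *SGSH* and *TPP1*, beside 3.56% of all genes. Leaving out Y-A replicate 5 or Y-P replicate 2 left 0 members called in either direction, beside 3.11% and 2.63% of all genes. In the same comparison 4 of 4 red cell, 1 of 2 platelet and 1 of 7 neutrophil markers were called lower. Called higher were 2 of 6 T cell markers. Of 7 monocyte and 6 B cell markers 0 were called, with median log2 fold changes of -0.48 and 0.36. The part of all these cells was not tested.

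Between estrus and pregnancy, 17 members passed. For Y-P vs. Y-E, 5 members rose and 12 fell, 13.6% of the members beside 14.4% of all genes (5.77% higher and 8.68% lower). Without Y-E replicate 6 the counts were 4 and 12, 12.8% of the members beside 13.7% of all genes. Without Y-E replicate 2, 3 or 5, in each case, 2 rose and 7 fell, 7.2% beside 9.72%, 9.75% and 9.37% of all genes. Only *SORL1* had a log2 fold change beyond 1, where 2.67% of all genes were called at that fold. The 6 and 6 libraries were apart for 5 members (4%), *AP1G2*, *AP4B1*, *GGA1*, *SGSH* and ENSBGRG00000019731, beside 6.03% of all genes. The median log2 fold change was -0.06 over the members and 0.04 over all genes. Without regard to sign the median size of the members' log2 fold changes was 0.21, close to the 0.2 of Y-P vs. Y-A. Over all genes tested the median size was larger, at 0.3 in Y-P vs. Y-E and 0.26 in Y-P vs. Y-A. Between these stages 6 of 7 neutrophil, 3 of 4 red cell and 1 of 2 platelet markers were called lower in Y-P. Called higher were 3 of 6 T cell markers. Of 7 monocyte and 6 B cell markers 0 were called, with median log2 fold changes of -0.51 and 0.52. The part of all these cells in the results below was not tested.

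The balance of higher and lower calls depended on the scaling. With the library size alone in place of TMM, 9 members rose and 0 fell in Y-P vs. Y-A, and 12 rose and 6 fell in Y-P vs. Y-E. These were 7.2% and 14.4% of the members, beside 9.19% and 17.6% of all genes. By limma on log2(FPKM + 1) the counts were 15 and 1, and 19 and 5, which is 12.8% and 19.2% beside 14.6% and 21.2% of all genes. Over all genes, the log2 fold changes then had medians of 0.19 and 0.18 with the library size, and 0.15 and 0.14 with FPKM, instead of 0.03 and 0.04. Across all genes the share of called genes that were higher went from 38.1% to 80.6% in Y-P vs. Y-A and from 39.9% to 70.3% in Y-P vs. Y-E with the library size alone. No called member changed its sign in any of 27 alternatives.

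**Figure D2:**
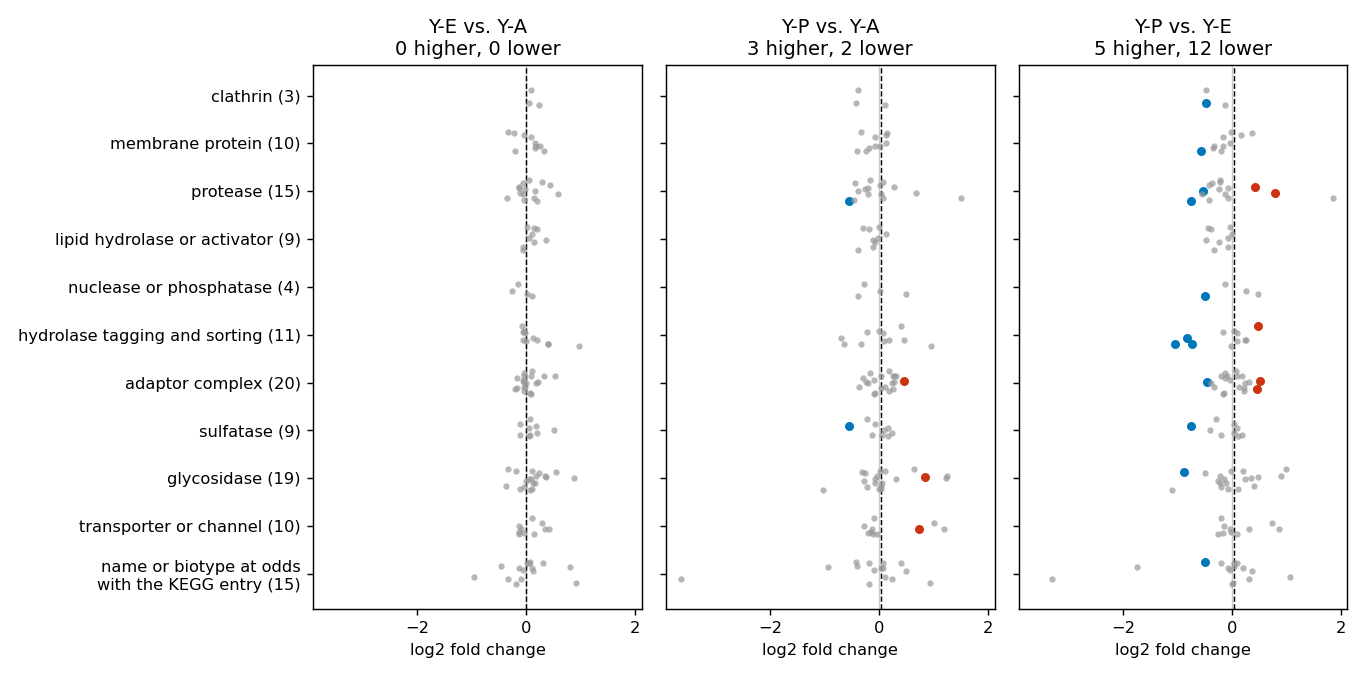
Log2 fold change of each of the 125 lysosome genes (horizontal axis) by functional class in the 3 comparisons; red points were called higher, blue points called lower, grey points did not pass, and the dashed line is the median of all 14508 genes tested. No point is called in Y-E vs. Y-A, 5 are in Y-P vs. Y-A, and 17 are in Y-P vs. Y-E, and of these 17 *SORL1* alone lies beyond 1.

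The sorting machinery that brings hydrolases to the lysosome held the strongest single result. Of 8 members of the mannose 6-phosphate route, 1 rose and 1 fell in Y-P vs. Y-E. Of 3 receptors of the VPS10 family, which sort cargo without that tag, 2 fell. None of these 11 passed in Y-P vs. Y-A, where 5.83% of all genes did. The classes are small, and their counts below are descriptions to be read beside the 14.4% of all genes called in Y-P vs. Y-E. *GGA1* (chr5:117381550-117401979, plus strand) encodes a Golgi adaptor that gathers mannose 6-phosphate receptors into clathrin carriers. As lowest, median and highest level the Y-A libraries had 129.9, 136 and 158 CPM, the Y-E libraries 129, 189 and 237 CPM, and the Y-P libraries 91.2, 113 and 120.4 CPM. All 6 Y-P libraries lay below all 12 others, and Y-E reached highest. Its log2 fold change in Y-P vs. Y-E was -0.73 ± 0.12 (SE), adjusted p = 0.00105 by edgeR, and -0.81 without Y-E replicate 6, itself the lowest Y-E library at 129 CPM. Against Y-A the change was -0.34 ± 0.12 (edgeR adjusted p = 0.0999) despite the gap. Its paralogs did not pass in Y-P vs. Y-E, with 0.09 ± 0.1 for *GGA2* and 0.1 ± 0.12 for *GGA3* on the log2 scale.

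Both sorting receptors of the VPS10 family that were measured well fell from estrus to pregnancy. *SORL1* (chr13:54911584-55095437), a large receptor that moves cargo between Golgi and endosomes, is at 138 FPKM a leading blood transcript. It had 877, 1025 and 1686 CPM as lowest, median and highest in Y-A, 1024, 1354 and 1964 in Y-E, and 328, 679 and 1276 in Y-P. The stages overlapped through 1 high Y-P library, while 5 of 6 Y-P libraries lay below every Y-E library. The log2 fold change was -1.05 ± 0.27 (edgeR adjusted p = 0.0139), and it stayed called in all 27 alternatives. *SORT1*, sortilin, had 11.4, 27.1 and 41 CPM in Y-E and 11.1, 13.8 and 21.1 in Y-P. Its change was -0.82 ± 0.25 (edgeR adjusted p = 0.0369), and -0.65 with adjusted p = 0.0892 without Y-E replicate 6, which was its highest library. The third receptor of the family among the members, *SORCS2*, had 0.108 FPKM and was not called.

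The tagging enzyme and a receptor of the tag passed in no comparison. *GNPTAB*, the catalytic part of the phosphotransferase that starts the tag, had medians of 119, 123 and 109 CPM in Y-A, Y-E and Y-P, and *M6PR* had 129, 125 and 129 CPM. Their log2 fold changes in Y-P vs. Y-E were -0.16 ± 0.13 and 0.05 ± 0.09. ENSBGRG00000026483 (chr26:46732898-46746543, minus strand) has the orthology entry of the gamma subunit of the phosphotransferase and lies where RefSeq places *GNPTG* and *TSR3*. It rose by 0.49 ± 0.15 in Y-P vs. Y-E (edgeR adjusted p = 0.0366), from 23.7, 30.7 and 34 CPM in Y-E to 31.8, 39 and 65.4 in Y-P. Without Y-E replicate 6, its lowest library, the adjusted p was 0.0733. The row overlaps *TSR3* and ENSBGRG00000026477 on the opposite strand, so its counts are uncertain.

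Adaptor complexes and clathrin, which form coats of transport carriers, held calls in both directions. Of 20 adaptor members 2 rose and 1 fell in Y-P vs. Y-E, 15% of them beside 14.4% of all genes. *AP1G2* (chr11:1967266-1977673), a gamma adaptin of the AP-1 complex, had 33.4, 36.8 and 43.1 CPM in Y-A, 33.3, 35.2 and 38 in Y-E, and 42.3, 47.8 and 70 in Y-P. Every Y-P library was above every Y-E library, while 2 Y-P libraries reached into the Y-A range. The log2 fold change was 0.51 ± 0.11 against Y-E (edgeR adjusted p = 0.0058) and 0.45 ± 0.11 against Y-A (adjusted p = 0.0279). *AP4B1*, the beta subunit of AP-4, which exports cargo from the Golgi, had 27.3, 34.7 and 40.2 CPM in Y-E and 41.6, 46.4 and 51.2 in Y-P. Its change was 0.46 ± 0.11 (edgeR adjusted p = 0.0119), and both genes were called against Y-E in all 27 alternatives.

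The other coat genes called in Y-P vs. Y-E, *CLTC* and ENSBGRG00000012179, were lower instead. *CLTC*, the clathrin heavy chain, was at 623, 680.0 and 789.8 CPM in Y-E and 328, 495 and 646 in Y-P. Its log2 fold change of -0.47 ± 0.13 (edgeR adjusted p = 0.0186) was lost with the library size alone, at -0.32 with adjusted p = 0.0949. *AP3D1*, the most abundant adaptor member at 46.1 FPKM, had medians of 251, 248 and 234 CPM and did not pass. *AP1G1*, with the same orthology entry as *AP1G2* and 25.4 FPKM, had medians of 95.4, 91.5 and 75.7 CPM in Y-A, Y-E and Y-P. In 5 Y-P libraries it lay below every Y-E library, but it did not pass. ENSBGRG00000012179, described as the sigma 2 subunit of AP-1 and placed on the sequence called Y in the table, fell by 0.46 on the log2 scale in Y-P vs. Y-E (edgeR adjusted p = 0.0314). Without Y-E replicate 6 its adjusted p was 0.0632. The animals are cows, so the placement on Y is a feature of the annotation.

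Among 15 proteases, 2 rose and 2 fell in Y-P vs. Y-E, which is 26.7% beside 14.4% of all genes. *TPP1* (chr13:39089694-39100943) encodes tripeptidyl peptidase, the enzyme lost in a childhood form of neuronal ceroid lipofuscinosis. It had 156, 163 and 226 CPM in Y-A, 149, 201 and 246 in Y-E, and 86.1, 112 and 153 in Y-P. All Y-P libraries were below the Y-A range, and 4 of them below the Y-E range. The log2 fold change was -0.75 ± 0.15 against Y-E (edgeR adjusted p = 0.00366) and -0.55 ± 0.15 against Y-A (adjusted p = 0.041). *CTSZ*, a carboxypeptidase of myeloid cells, fell by 0.53 ± 0.15 in Y-P vs. Y-E (edgeR adjusted p = 0.0262), from 113, 139 and 159 to 71.7, 96 and 124 CPM.

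The rising proteases were less certain. *CTSO* had 22.6, 32.5 and 38.4 CPM in Y-E and 36.7, 41.5 and 48.4 in Y-P, with a change of 0.42 ± 0.14 (edgeR adjusted p = 0.0472), and was called in 13 of 27 alternatives. ENSBGRG00000020304 (chr29:8204922-8207495) carries a cysteine protease entry, and RefSeq places *CTSW*, the cathepsin of cytotoxic lymphocytes, among 6 genes in this interval. It had 17, 21.3 and 26.8 CPM in Y-E and 20, 32.7 and 69.1 in Y-P, a change of 0.79 ± 0.25 (edgeR adjusted p = 0.0416). Without Y-E replicate 6, its lowest Y-E library, the adjusted p was 0.0783. The summed level of 3 NK cell markers was 63.1 to 170.1 CPM in Y-E and 96.3 to 176 in Y-P, and 0 of 3 passed. The Y-E low of 63.1 was Y-E replicate 6, and the medians were 104 in Y-E and 122 in Y-P. Most of this sum came from *PRF1*, with medians of 97.2 CPM in Y-E and 115 in Y-P. Of 6 T cell markers 3 were called higher in Y-P vs. Y-E, and the part of these cells was not tested.

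The most abundant proteases did not pass. *CTSB* had medians of 719.6, 674 and 463 CPM in Y-A, Y-E and Y-P, with overlapping ranges and a change of -0.37 ± 0.19 against Y-E (edgeR adjusted p = 0.215). The cathepsin D row ENSBGRG00000008484 had medians of 275, 359 and 291 CPM and a change of -0.41 ± 0.16 (adjusted p = 0.0982).

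**Figure D3:**
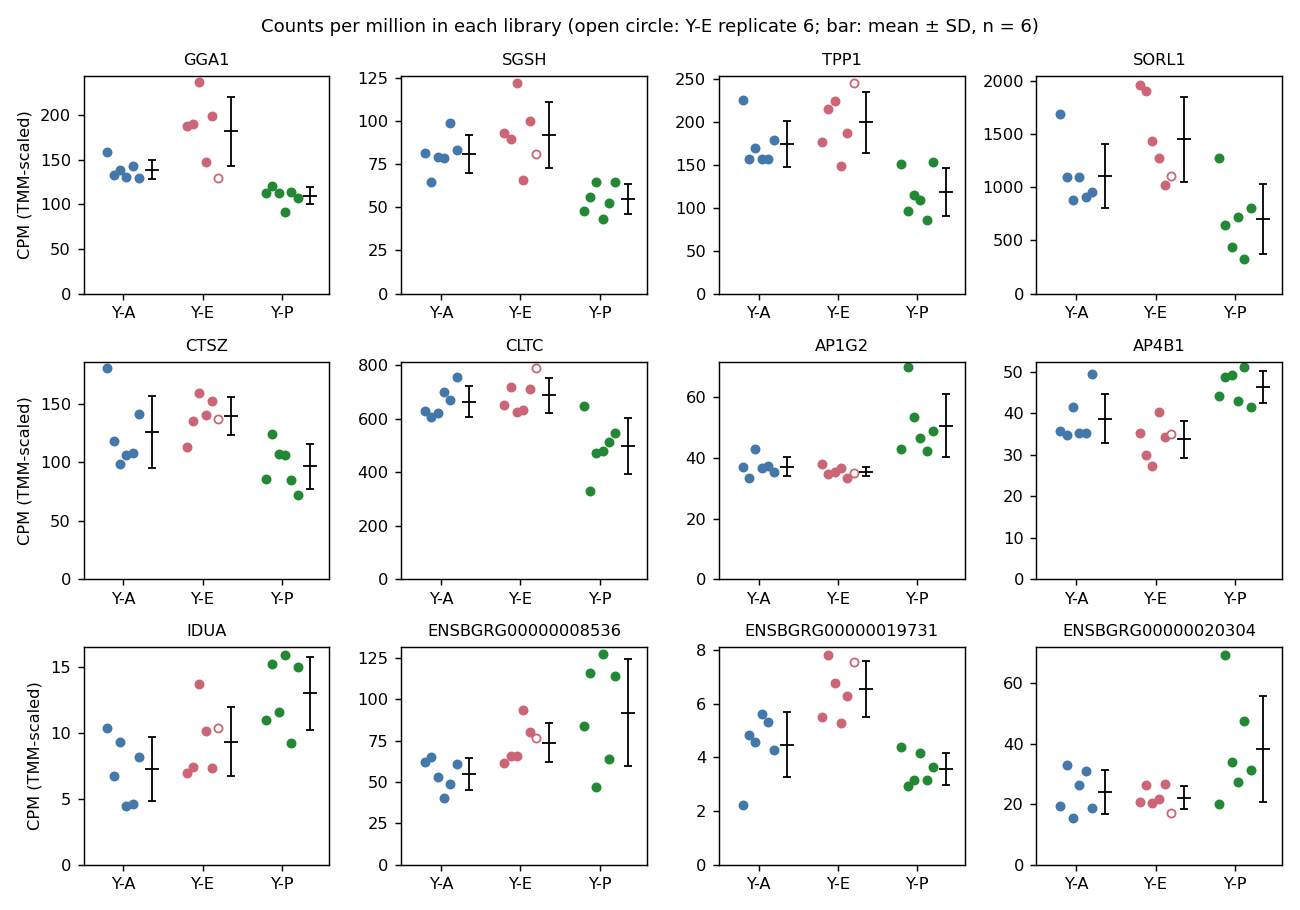
Level in CPM, after TMM scaling, in each library for 12 of the 19 called lysosome genes, by stage (Y-A, Y-E, Y-P); each point is a library, the open circle is Y-E replicate 6, and the bar is the mean ± SD of 6 libraries, with the vertical axis starting at 0. *GGA1* shows all 6 Y-P libraries below the others, *SGSH* shows them below Y-E, *AP1G2* and *AP4B1* show them above Y-E, and *SORL1* and ENSBGRG00000020304 show a wide spread within Y-P.

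Enzymes that break down heparan sulfate and related glycans included a fall and a rise. *SGSH* (chr19:12652443-12661911, minus strand) encodes sulfamidase, which removes N-linked sulfate from heparan sulfate. Its level was 64.6, 80.2 and 98.8 CPM in Y-A, 65.6, 91.2 and 122 in Y-E, and 43.4, 54.4 and 64.6 in Y-P, and all Y-P libraries were below Y-E. The highest Y-P and the lowest Y-A library were level within rounding, so the gap to Y-A is negligible. The log2 fold change was -0.74 ± 0.14 against Y-E (edgeR adjusted p = 0.00224) and -0.56 ± 0.14 against Y-A (adjusted p = 0.0269). It was the 1 gene called of 9 sulfatases and their activating enzymes, 11.1% beside 5.83% of all genes against Y-A and 14.4% against Y-E.

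*IDUA* (chr6:5025270-5042004, minus strand), the iduronidase that acts on the same glycan, rose instead. It had 4.47, 7.45 and 10.4 CPM in Y-A, 6.99, 8.77 and 13.8 in Y-E, and 9.21, 13.3 and 15.9 in Y-P, and 5 of 6 Y-P libraries lay above the Y-A range. The log2 fold change in Y-P vs. Y-A was 0.84 ± 0.23 (edgeR adjusted p = 0.0395), and in Y-P vs. Y-E 0.48 ± 0.23 (adjusted p = 0.172). A long non-coding row with the same enzyme number, ENSBGRG00000019731 (chr6:5042025-5057170), lies upstream of *IDUA* on the same strand, with 20 bases between them. Its level was 2.21, 4.7 and 5.61 CPM in Y-A, 5.29, 6.53 and 7.82 in Y-E, and 2.92, 3.4 and 4.38 in Y-P, so that Y-P was below Y-E throughout. The change in Y-P vs. Y-E was -0.87 ± 0.20 (edgeR adjusted p = 0.00818), opposite in sign to that of *IDUA*. *IDUA* overlaps *SLC26A1* on the opposite strand, so its counts are uncertain too.

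The remaining glycosidases gave no call among 19 members beside those of this locus. *MAN2B1*, the lysosomal alpha-mannosidase and the most abundant of them at 152 FPKM, had medians of 713, 759 and 693 CPM.

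Of 9 lipid hydrolases and activators 0 passed in any comparison by edgeR. At an unadjusted p under 0.05 in Y-P vs. Y-E there were 3 of the 9, beside 29.3% of all genes. *PSAP* had 1612, 2669 and 3126 CPM in Y-E and 1382, 1804 and 2469.9 in Y-P, a change of -0.43 ± 0.16 (edgeR adjusted p = 0.068). Among 4 nucleases and phosphatases *ACP2*, the lysosomal acid phosphatase, fell by 0.49 ± 0.15 in Y-P vs. Y-E (edgeR adjusted p = 0.0352), from 18.1, 22.8 and 26.6 to 13.3, 15.3 and 20 CPM. This call held in 16 of 27 alternatives and in 10 of the 18 that leave out a library, and was lost without Y-E replicate 1, 2, 3 or 5 and without Y-P replicate 2, 3, 4 or 5. *ACP5*, the tartrate-resistant acid phosphatase of macrophages and osteoclasts, had medians of 97.4, 104 and 149.7 CPM. Its change of 0.49 ± 0.17 in Y-P vs. Y-E missed the threshold (edgeR adjusted p = 0.0539).

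In the lysosomal membrane 1 of 10 proteins was called. *LITAF* (chr26:36199393-36253658) had 388, 452 and 602 CPM in Y-A, 396, 596 and 718 in Y-E, and 303, 394 and 511 in Y-P. It fell by 0.56 ± 0.15 in Y-P vs. Y-E (edgeR adjusted p = 0.0192). *LAPTM5* had medians of 2857, 3252 and 3006 CPM, *LAMP1* 357, 403 and 346 CPM, and the CD63 row 138, 148 and 143 CPM. Their log2 fold changes in Y-P vs. Y-E were -0.04 ± 0.14, -0.17 ± 0.15 and -0.17 ± 0.18, and none passed.

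Of 10 transporters and channels 1 was called, in Y-P vs. Y-A, 10% of them beside 5.83% of all genes. ENSBGRG00000008536 (chr9:15926129-15949701) carries the orthology entry of an ABC transporter, is typed as a pseudogene, and lies where RefSeq places *ABCA2* and *CLIC3*. It had 40.1, 56.9 and 65.3 CPM in Y-A, 61.5, 71.1 and 93.6 in Y-E, and 47, 98.8 and 127 in Y-P, with a change of 0.74 ± 0.20 (edgeR adjusted p = 0.0381). Y-P ran from within the Y-A range to far above it, and ENSBGRG00000008728 lies inside the row on the same strand. *NPC2* and *NPC1*, which hand cholesterol out of the lysosome, had medians of 104, 111 and 83.2 CPM and of 64.2, 66.9 and 60.9 CPM. *MCOLN1*, the calcium channel of the lysosome, had 34.2, 32.5 and 33.6 CPM. None of these 3 passed.

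The class at odds with its KEGG entry held 1 call, the long non-coding row ENSBGRG00000025873 (chrX:9737129-9743605). It had 378, 479 and 530.4 CPM in Y-E and 222, 356 and 385 in Y-P, a change of -0.50 ± 0.14 (edgeR adjusted p = 0.0265). The *HORMAD1* row had medians of 427, 351 and 363 CPM. Wide values without a call came from scarce rows such as *TINAGL1*, with a log2 fold change of -3.64 ± 1.30 in Y-P vs. Y-A (edgeR adjusted p = 0.102), 0 to 42 counts per library and a name chosen after its values were seen.

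Other parts of the lysosomal system were counted from lists outside the 125. No gene of these lists was called in Y-E vs. Y-A by edgeR. Among 10 measured regulators of lysosome genes, 1 fell in Y-P vs. Y-A and 3 in Y-P vs. Y-E, 10% and 30% beside 3.61% and 8.68% of all genes that were lower. *TFE3*, a transcription factor of the lysosomal gene network, had 181, 198 and 228 CPM in Y-A, 186, 229 and 261 in Y-E, and 146, 157 and 163 in Y-P, and Y-P was below both stages throughout. Its log2 fold change was -0.54 ± 0.09 against Y-E (edgeR adjusted p = 0.00147) and -0.38 ± 0.09 against Y-A (adjusted p = 0.0275). *FNIP1* and *FNIP2*, partners of folliculin in nutrient sensing, fell by 0.63 and 0.75 in Y-P vs. Y-E, while *TFEB* changed by -0.39 ± 0.19 and did not pass.

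The 12 rows with both KEGG entries, mostly subunits of the proton pump V-ATPase, gave 1 rise and 2 falls in Y-P vs. Y-E, 25% beside 14.4% of all genes. *ATP6AP1*, an accessory subunit, fell by 0.77 ± 0.15 (edgeR adjusted p = 0.00256), ENSBGRG00000011501 by 0.60, and *ATP6V0A4* rose by 0.75. Of the 5 genes left out by name, *CD68*, the macrophage scavenger glycoprotein of the lysosome, fell by 0.79 ± 0.20 in that comparison (edgeR adjusted p = 0.0144), and *SCARB2*, *SLC11A1*, *SLC11A2* and *IGF2R* did not pass.

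Genes that move lysosomes and fuse them with other compartments were called in both directions. *BLOC1S4*, a subunit of the complex BLOC-1 for lysosome-related organelles, was the 1 of 9 measured BLOC-1 and BORC genes called (11.1%, beside 5.83% of all genes against Y-A and 14.4% against Y-E). It had 2.55, 3.71 and 4.48 CPM in Y-A, 3.03, 3.39 and 4.13 in Y-E, and 5.94, 8.99 and 12.4 in Y-P, with no overlap between Y-P and the others. The change was 1.34 ± 0.20 against Y-A (edgeR adjusted p = 0.00148) and 1.37 ± 0.20 against Y-E (adjusted p = 0.000419). Of 10 tethering and small GTPase genes *VPS16* rose by 0.37 in Y-P vs. Y-E, and the lysosome adaptors *PLEKHM1* and *PLEKHM2* fell by 0.61 and 0.71, so that 30% of these 10 were called beside 14.4% of all genes. Against Y-A only *VPS16* of the 10 was called, at 0.36 ± 0.10 (edgeR adjusted p = 0.0431), 10% beside 5.83% of all genes. Of 5 measured Ragulator and Rag genes 0 were called by edgeR.

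**Figure D4:**
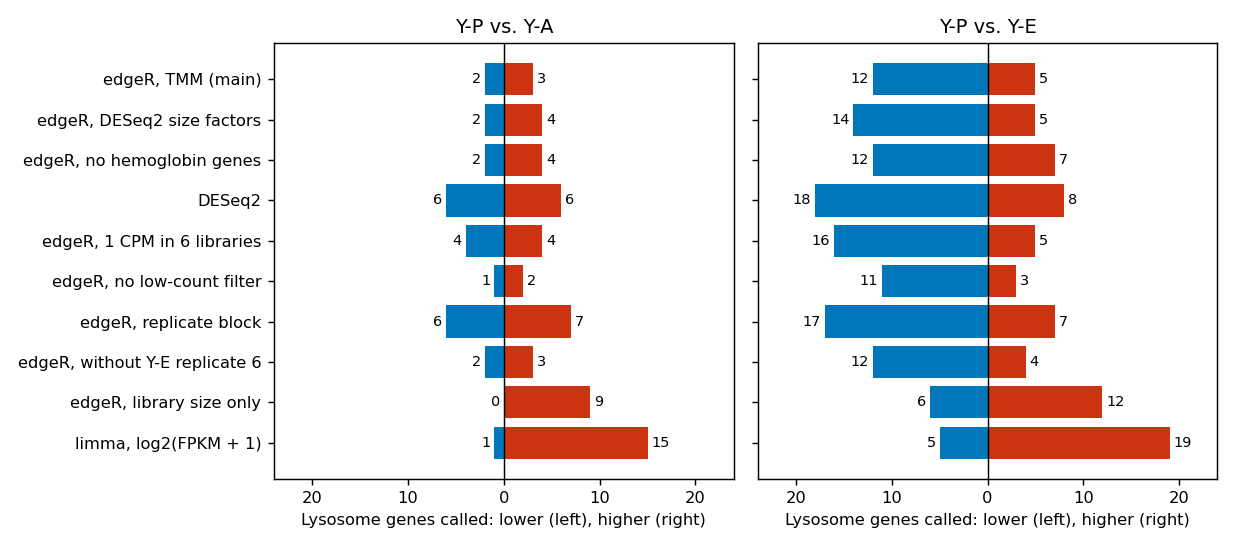
Number of lysosome genes called lower (blue, left) and higher (red, right) in the comparisons of Y-P with Y-A and with Y-E, for each way of processing, at an adjusted p under 0.05. With edgeR and TMM 3 were higher and 2 lower against Y-A, and 5 higher and 12 lower against Y-E, and with scaling by library size or FPKM 12 and 19 were higher against Y-E. In these last 2 settings 14.4% and 19.2% of the members were called in either direction, beside 17.6% and 21.2% of all genes.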

How the data were processed

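Whole blood RNA-seq of 18 libraries (3 stages, 6 each) was used. The authors trimmed reads with cutadapt 1.9, aligned them with HISAT2 2.2.1 to the *Bos grunniens* genome of Ensembl and estimated FPKM with StringTie 2.1.6 and ballgown. FPKM values and unnormalized whole-number counts per gene were deposited, and how the counts were made is not given in the sources used here. Positions are those of the deposited table, whose build name is not given in the sources used here; RefSeq served for gene order only.

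On the counts, edgeR 4.0.16 was run in R 4.3.3 (genes kept by filterByExpr, TMM, quasi-likelihood fit of stage over all 18 libraries, two-sided), with Benjamini-Hochberg adjustment per comparison. SE is the log2 fold change over the root of F. The fit was also run on simulated counts. These had independent libraries and no broad shift in composition between stages, so that run cannot judge the scaling or the replicate block. CPM, the counts of a gene scaled to the library total, are after TMM scaling. DESeq2 1.42.0 and limma 3.58.1 (pseudocount of 1) were alternatives, and Python 3.11.15 made summaries. The replicate numbers are shared by the stages and the same 6 cows were followed, but no source says that a number marks a cow. The fit therefore treats the libraries as independent. Its p-values measure the spread between these samples and leave out a pairing by cow.

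Members, lists and rules were chosen with earlier results of these data known. Named were, per comparison, up to 8 called members in each direction with the smallest adjusted p, the highest member by FPKM of each class, landmark genes, and up to 3 called genes of each other list. *ACP2*, *SORT1*, ENSBGRG00000012179, ENSBGRG00000025873, *AP1G1*, *GGA2* and *GGA3* were added after their values were seen, as were examples of spread and marker genes. No sequence of these genes was used here. The results of 2 genes that this rule names are not reported here.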

Additional observations from a re-analysis of the deposited data

Results flagged for a closer look

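Of the members named in the results, 34 were checked in each stage for a library far from the other 5. The measure was the gap to its nearest neighbour over the whole range on the log2 scale, against Dixon's critical value for 6 samples at the 95% level. Of 102 groups 4 were past it, and chance gives about 1 in 20. In Y-A replicate 1 *SORL1* was at 1686 CPM, with the other Y-A libraries at 877 to 1097. The same library had 226 CPM of *TPP1*, the others 156 to 178. For ENSBGRG00000019731 it was low, at 2.21 CPM, with the others at 4.27 to 5.61. *NPC1* was at 50.2 CPM in Y-P replicate 5 and at 59.9 to 63.6 in the others. Without Y-A replicate 1, *TPP1* was no longer called in Y-P vs. Y-A.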

How the results depend on the processing

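No lysosome gene was called in Y-E vs. Y-A under any alternative. In the other comparisons the counts (higher, lower) were 3 and 2 in Y-P vs. Y-A and 5 and 12 in Y-P vs. Y-E, and the causes of the moves below were not tested. In Y-P vs. Y-A they were 9 and 0 with library size only, 6 and 6 by DESeq2, 15 and 1 by limma on FPKM, 2 and 1 without a low-count filter, 4 and 4 with at least 1 CPM in 6 libraries, and 0 and 0 with a log2 fold change of at least 1. In Y-P vs. Y-E they were 12 and 6, 8 and 18, 19 and 5, 3 and 11, 5 and 16, and 0 and 1. DESeq2 called 9.6% of the members beside 10.4% of all genes in Y-P vs. Y-A, and 20.8% beside 19.2% in Y-P vs. Y-E. Without a low-count filter it was 2.4% beside 2.88%, and 11.2% beside 8.37%. With at least 1 CPM in 6 libraries it was 6.96% beside 7.55%, and 18.3% beside 17.6%. Size factors of DESeq2 and taking out hemoglobin genes kept all counts within 1.5 times. With the replicate block the counts were 7 and 6 in Y-P vs. Y-A and 7 and 17 in Y-P vs. Y-E, and with the block and without Y-E replicate 6 they were 4 and 5, and 6 and 14. The block called 10.4% of the members beside 8.84% of all genes in Y-P vs. Y-A, where the tests without it called 4% beside 5.83%, and 19.2% beside 18% in Y-P vs. Y-E. With the block and without Y-E replicate 6 the shares were 7.2% beside 7.2%, and 16% beside 15.2%. Same-number libraries deviated together (correlation over 0.1) in 6 of 6 pairs of Y-A and Y-E but in 4 of 6 for each comparison with Y-P, and in 26 of 36 matches the best partner had the same number. Each match chose among the 6 libraries of another stage, so these values point to numbers that mark cows. No label says so and not every pair with Y-P was over 0.1, so the tests above have no block. They treat the libraries as independent, which ignores the pairing if numbers mark cows. Leaving out 1 library gave 0 to 5 higher and 0 to 5 lower in Y-P vs. Y-A, with 0 and 0 without Y-A replicate 5 or Y-P replicate 2, and 2 to 6 higher and 7 to 16 lower in Y-P vs. Y-E, with the lowest lower count of 7 without Y-E replicate 2, 3 or 5. Over the 27 alternatives 7 of 22 calls were kept throughout, all in Y-P vs. Y-E (*GGA1*, *SGSH*, *TPP1*, *SORL1*, *AP1G2*, *AP4B1* and ENSBGRG00000019731), and *CTSO* was lost in 14. In Y-P vs. Y-E *LITAF* and *CLTC* were kept in 25, *CTSZ* and ENSBGRG00000025873 in 20, ENSBGRG00000012179 in 18, ENSBGRG00000026483 in 17, *ACP2* and *SORT1* in 16, and ENSBGRG00000020304 in 15. In Y-P vs. Y-A *SGSH* was kept in 22, *AP1G2* in 21, *IDUA* and ENSBGRG00000008536 in 18, and *TPP1* in 15. No called value changed sign. The motif search in promoters was not run, since no sequence was used here.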
